A study of Mus musculus with 6 samples.

Results

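The genes described here are the transcripts of the autophagy machinery and of the transcription factors TFEB, TFE3 and MITF, 38 genes taken by symbol from the 40213 gene rows of the count files, all of which passed the expression filter that left 12893 genes for testing. The members cover the steps of autophagosome formation, the receptors that bring cargo to it, and 3 factors of the MiT/TFE family. They were measured in mouse bone marrow-derived macrophages, cells grown from the marrow of C57BL/6 mice over 4 days in medium that held 10% serum and 25 ng/ml of the growth factor M-CSF. From total RNA, 3 libraries of each group were sequenced: untreated control cultures, and cultures that received 50 µg of polystyrene micro- and nanoplastic particles (MNP) for 24 h, in a volume the labels do not give.

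In macroautophagy, a cell encloses cytoplasm, organelles or ingested material in a double membrane that fuses with lysosomes. The ULK kinase complex starts the process, a class III PI3-kinase marks the growing membrane with PI3P, and a ubiquitin-like conjugation system attaches LC3 and GABARAP proteins to its lipids, where receptors with bound cargo dock. TFEB, TFE3 and MITF are related factors that, when not held in the cytoplasm by mTORC1 signalling, enter the nucleus and drive lysosomal and autophagy genes. Macrophages also attach LC3 to single-membrane phagosomes that hold particles. Much of this control acts on proteins and their location, which transcript counts do not measure.

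Most autophagy transcripts stayed close to their control level after MNP, and 6 of the 38 genes changed. Gabarapl1 and Mitf rose, and the initiation genes Ulk2 and Rb1cc1 and the cargo receptors Optn and Calcoco1 fell. The called share, 15.8% of the members, was near the 17.5% called among all tested genes, and by direction 2 of 38 stand beside 9.11% higher and 4 of 38 beside 8.35% lower in the background. The median log2 fold change was -0.04 over the members and -0.01 over all tested genes. Changes were tested with edgeR's quasi-likelihood test, called at a Benjamini-Hochberg adjusted p under 0.05 over all tested genes, and levels are CPM with library sizes scaled by normalization factors (scaled CPM), with mean ± SD of 3 libraries.

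No member's estimate reached 1.5-fold, the distance within which 86.7% of all tested genes lay. The 95% interval of the fold change lay wholly inside 1.5-fold in either direction for 33 members (86.8%), against 62.8% of all tested genes. The other 5 were Optn and Calcoco1, which had the largest decreases among the called members, and Wipi1, Atg10 and Map1lc3a, whose counts were low. Interval width depends on the spread between libraries, which was smaller for the members. In controls the median SD was 5.64% of the mean for members and 9.11% for all tested genes. In MNP libraries it was 5.88% and 7.97%. The part of this in the interval shares was not tested. Libraries of the 2 groups did not overlap for 15 members, 5 higher and 10 lower, against 34.6% of all tested genes. Summed over the 38 genes, the share of a library's counts was 0.239% to 0.244% for controls and 0.228% to 0.229% for MNP, and after scaling their sum was 2323 to 2367 CPM and 2333 to 2378 CPM. The groups did not overlap in the unscaled share and did overlap in the scaled sum. With library totals alone, 1 member was higher and 8 were lower, 9 of 38 beside 2698 of all 12893 tested genes. Omitting control 2 left 2 called members, Optn and Calcoco1, beside 1624 of 13138 tested genes. Omitting MNP sample 2 left 3, beside 1471 of 13349. With all libraries, 2250 of 12893 tested genes were called.

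**Figure D1:**
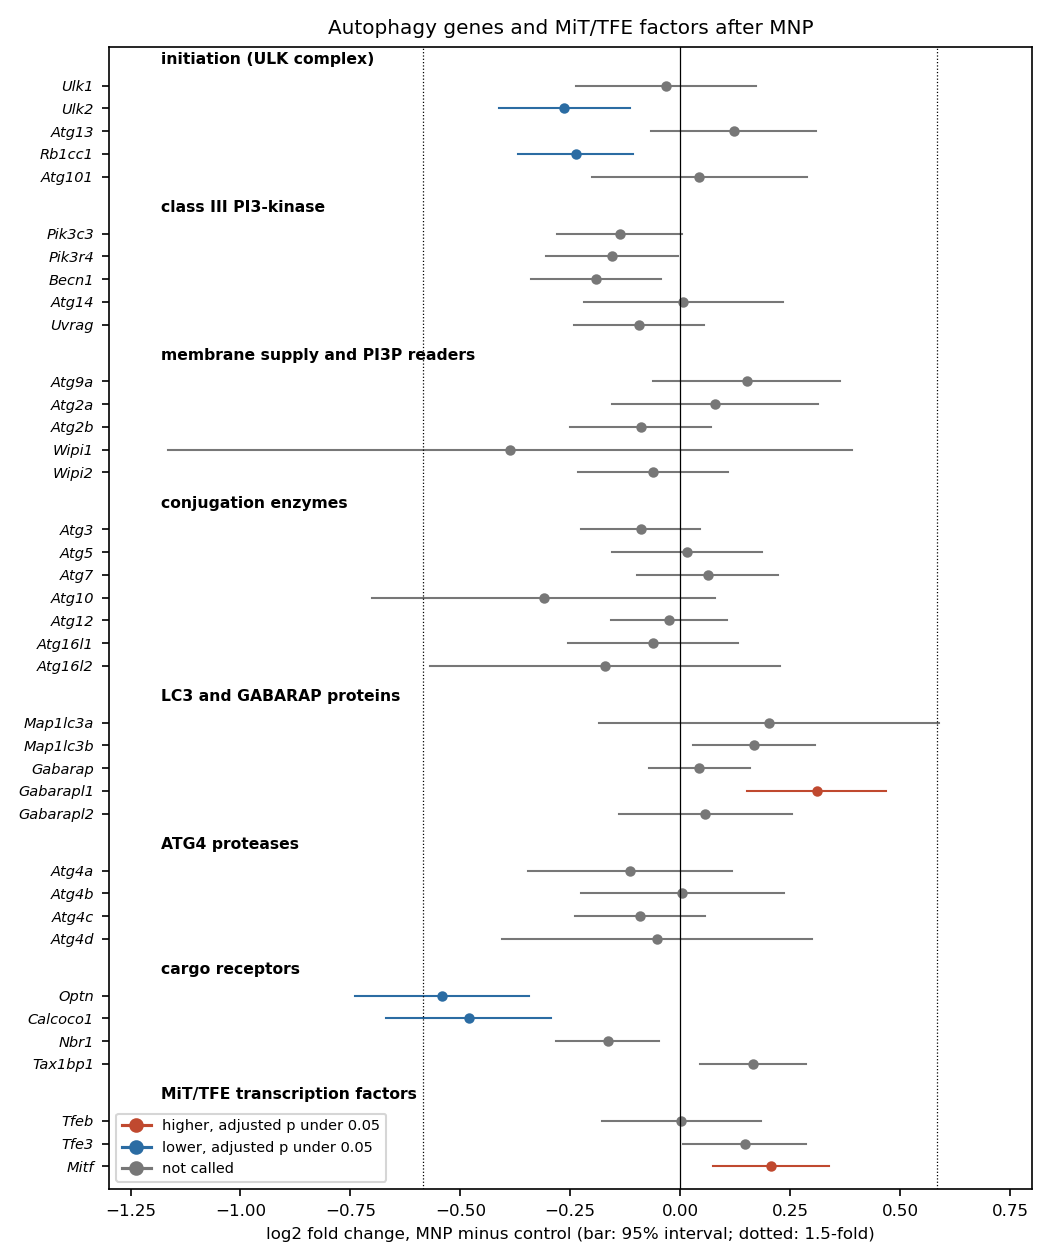
Log2 fold change of each of the 38 genes, MNP minus control, by role in autophagy, with bars for the 95% interval and dotted lines at 1.5-fold. Red points (Gabarapl1, Mitf) were called higher and blue points (Ulk2, Rb1cc1, Optn, Calcoco1) lower, and all 38 points lie inside the dotted lines.

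The smallest library held 20262859 counts and the largest 23042146, which made 3 counts worth 0.127 to 0.145 scaled CPM. Genes with any count numbered 24062, 20935 and 20222 in controls 1 to 3 and 18672, 18655 and 18240 in MNP samples 1 to 3. Normalization factors were 1.024 to 1.037 in controls and 0.958 to 0.978 in MNP libraries. The cause of these group differences was not tested. The labels do not say whether the libraries of a group came from separate cultures or animals. The p-values weigh the group difference against the spread between these samples, which may therefore be technical. The macrophage marker list (Csf1r, Adgre1, Cd68, Itgam, Mertk, Lyz2, Fcgr1) was abundant, with a summed level of 18770 to 19490 CPM in controls and 16660 to 17690 CPM in MNP libraries. Most of this sum was Lyz2, at 14480 to 15150 CPM in controls and 12700 to 13590 CPM in MNP libraries. Of the 7 genes, 4 were lower (Adgre1, Mertk, Lyz2 and Fcgr1). Csf1r, Itgam and Cd68 were not called, with log2 differences of -0.07, 0.03 and 0.25. Neutrophil markers summed to 160 to 236 CPM and 112 to 131 CPM (3 of 6 tested genes lower), dendritic cell markers to 5.22 to 8.91 and 2.29 to 3.92 CPM (2 of 5 tested genes lower), and megakaryocyte markers to 17.2 to 25.3 and 11.9 to 14.0 CPM (1 of 3 tested genes lower). The T-cell list came almost wholly from Cd28 and summed to 176 to 206 CPM and 142 to 148 CPM, with its 1 tested gene lower. Lists for B cells, erythroid, mast and stromal cells reached at most 2.26 CPM in any library, and Cd3e of T cells had no count in any. In bulk RNA, fewer cells of a type and less RNA per cell cannot be told apart, and the part of these shifts in the results below was not tested.

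Promoters of the members were searched for the E-box, because the MiT/TFE factors bind it. The antioxidant response element, the site of the factor NRF2, was searched beside it, since NRF2 is known to act on autophagy receptor genes. RefSeq promoter windows of the build GRCm38.p6, 250 bases before to 50 after each start, matched 32 of the 38 members with 41 windows. Each was searched on both strands for the E-box CACGTG, its extended form TCACGTGA (which contains the E-box), the M-box TCATGTG and the antioxidant response element core TGACNNNGC. The E-box was found in 9.76% of member windows, in 7.15% of all 32851 windows and in 10.0% of the windows of tested genes. It occurred in Atg3, Atg5, Atg7 and Atg14, none of which was called. The extended form was found in Atg3 alone of the members with a window, in 0.974% of all windows and in 1.88% of those of tested genes. The antioxidant core was found in 12.2% of member windows (Atg13, Map1lc3b, Mitf, Tax1bp1 and Ulk2), in 12.4% of all windows and in 14.5% of those of tested genes. No member window held the M-box, which was in 3.77% of all windows and 2.31% of those of tested genes. A match is a description of letters, not of binding.

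The 250 bases before the start site are printed 5′ to 3′ on the gene's strand for Atg3, which held a pair of E-boxes and did not pass the test, for Mitf and Ulk2, which were called in opposite directions and each held the antioxidant core (Mitf in 1 of its 3 windows, the one shown), and for Optn, the largest change, with none of these motifs. Capitals mark the motif matches.
Atg3, chr16:45158579-45158828, plus strand: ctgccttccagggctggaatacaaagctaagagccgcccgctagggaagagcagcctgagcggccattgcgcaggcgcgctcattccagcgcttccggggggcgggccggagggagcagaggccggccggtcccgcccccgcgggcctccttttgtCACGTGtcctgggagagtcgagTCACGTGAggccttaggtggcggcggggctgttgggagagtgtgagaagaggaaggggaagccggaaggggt
Mitf, chr6:97929567-97929816, plus strand: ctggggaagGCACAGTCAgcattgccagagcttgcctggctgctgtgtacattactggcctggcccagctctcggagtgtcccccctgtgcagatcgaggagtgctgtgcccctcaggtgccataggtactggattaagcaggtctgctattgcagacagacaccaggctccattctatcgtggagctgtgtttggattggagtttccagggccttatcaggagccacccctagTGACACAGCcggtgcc
Ulk2, chr11:61855093-61855342, minus strand: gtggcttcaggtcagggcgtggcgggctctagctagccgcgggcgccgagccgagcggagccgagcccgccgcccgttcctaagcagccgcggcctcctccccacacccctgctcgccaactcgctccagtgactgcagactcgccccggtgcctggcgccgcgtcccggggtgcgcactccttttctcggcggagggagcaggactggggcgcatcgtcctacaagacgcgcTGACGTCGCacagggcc
Optn, chr2:5064118-5064367, minus strand: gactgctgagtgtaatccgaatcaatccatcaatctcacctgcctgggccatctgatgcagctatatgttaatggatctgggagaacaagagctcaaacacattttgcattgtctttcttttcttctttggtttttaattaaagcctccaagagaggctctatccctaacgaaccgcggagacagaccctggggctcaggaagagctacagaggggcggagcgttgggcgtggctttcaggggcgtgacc

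Of the 5 genes of the ULK complex, which starts autophagosome formation, 2 fell (40%), beside 8.35% lower among all tested genes. With so few genes, such a share says little. Ulk2, a kinase related to Ulk1, was at 82.7, 89.9 and 91.5 CPM in controls 1 to 3 and at 68.3, 73.8 and 77.9 CPM in MNP samples 1 to 3. The groups did not overlap, and the decrease was 1.20-fold (log2 -0.26 ± 0.07 SE, adjusted p = 0.0176). Rb1cc1, which encodes the FIP200 scaffold of the complex, was at 129, 139 and 124 CPM in controls and at 115, 107 and 110.4 CPM in MNP libraries. Every MNP library lay below every control, and the decrease was 1.18-fold (log2 -0.24 ± 0.06, adjusted p = 0.0149). Both calls were lost without control 2 (adjusted p = 0.0671 for Ulk2 and 0.0794 for Rb1cc1) or without MNP sample 2 (0.0724 and 0.0962). The Ulk2 call was also lost without control 3 (0.0632) or MNP sample 1 (0.0805), and the Rb1cc1 call without MNP sample 3 (0.0654).

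The other subunits did not pass. Ulk1, the kinase most often studied in starvation, had means of 21.8 ± 2.02 and 21.3 ± 0.353 CPM, with a 95% interval of the fold change from 0.849 to 1.13. Atg13, the adaptor that links kinase and scaffold, was at 32.4 ± 2.34 and 35.2 ± 2.54 CPM, and Atg101, its binding partner, at 12.4 ± 0.998 and 12.8 ± 0.890 CPM. In the GRCm38 annotation, 22.9% of the 31-base stretches of Rb1cc1 transcripts recur in other genes, while none of those of Ulk2 do.

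None of the 5 genes of the class III PI3-kinase was called. Becn1, the regulatory subunit that both forms of the kinase share, was at 64.6, 63.3 and 61.1 CPM in controls and at 52.3, 55.1 and 58.1 CPM after MNP. Its groups did not overlap, but the difference (log2 -0.19 ± 0.07) missed the threshold (adjusted p = 0.0732), and 48.2% of the short stretches of its transcripts recur in other genes, chiefly its opposite-strand neighbour Cntd1, which had 28 counts in each group. The catalytic subunit Pik3c3 (63.8 ± 2.07 and 58.0 ± 2.01 CPM) and its scaffold Pik3r4 (51.5 ± 1.06 and 46.3 ± 1.90 CPM) also had lower MNP libraries without overlap, with log2 differences of -0.14 and -0.15 that did not pass. With library totals alone, Becn1, Pik3c3 and Pik3r4 were all called lower (adjusted p = 0.0102, 0.0254 and 0.0251). Atg14, which directs the kinase to the forming autophagosome, had means of 17.9 ± 0.747 and 18.0 ± 2.02 CPM. Uvrag, the subunit of the endosomal form, had 63.1 ± 3.75 and 59.1 ± 1.33 CPM.

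No gene of membrane supply or PI3P reading passed. Log2 differences ran from -0.39 for Wipi1 to 0.15 for Atg9a, the scramblase whose vesicles seed the membrane. Of the short stretches of Atg9a transcripts, 36.6% recur in other genes, chiefly the same-strand gene Gm29253. Wipi1, a PI3P-binding protein, was the most weakly counted member, at 1.34, 2.65 and 1.61 CPM in controls and 1.64, 1.17 and 1.48 CPM after MNP. Control 2 stood above the other libraries, and without it the Wipi1 difference was -0.04. The interval with all libraries ran from 0.446 to 1.31 in fold. Wipi2, which recruits the conjugation machinery, was at 37.3 ± 0.900 and 35.7 ± 2.44 CPM, and the lipid-transfer proteins Atg2a and Atg2b differed by 0.08 and -0.09 on the log2 scale.

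The 7 conjugation genes showed no called change. Log2 differences lay between -0.31 (Atg10) and 0.06 (Atg7), and the libraries of the 2 groups overlapped for all 7. Atg7, the activating enzyme of both conjugation branches, was at 39.4 ± 1.41 CPM in controls and 41.1 ± 1.70 CPM after MNP. Atg3, the enzyme that hands LC3 to the lipid and whose promoter holds the E-boxes shown above, was at 88.5 ± 5.18 and 83.1 ± 1.98 CPM. Atg5 (71.0 ± 4.93 and 71.7 ± 6.60 CPM) and Atg12 (82.5 ± 2.88 and 81.0 ± 2.83 CPM), which are joined to each other, had fold intervals of 0.898 to 1.14 and 0.897 to 1.08. Their partner Atg16l1, which places the conjugation at the membrane and is needed for LC3 on phagosomes, had 27.97 ± 1.74 and 26.8 ± 2.05 CPM, and its relative Atg16l2 had 5.85 ± 0.558 and 5.19 ± 1.03 CPM. Atg10, the enzyme that joins the ATG12 protein to ATG5, was at 6.33, 6.87 and 9.08 CPM in controls and 6.38, 6.63 and 4.97 CPM after MNP. Its log2 difference was -0.13 without control 3 and -0.19 without MNP sample 3.

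The 4 ATG4 proteases, which trim LC3 and GABARAP proteins before conjugation and release them afterwards, gave no call either. Their log2 differences ran from -0.11 for Atg4a to 0.00 for Atg4b. Atg4c was at 49.9, 49.0 and 49.8 CPM in controls and 46.8, 44.7 and 48.1 CPM in MNP libraries, without overlap (adjusted p = 0.403). Of the short stretches of Atg4a, 74.9% recur in a pseudogene copy, so its count is uncertain. Of those of Atg4d, 20.4% recur in its opposite-strand neighbour Kri1, which had 1537 counts in controls and 1389 after MNP.

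The 5 LC3 and GABARAP genes encode proteins that coat the membrane and bind receptors. Of them, Gabarapl1 was the single called member (20%, beside 17.5% of all tested genes). It was at 101, 82.3 and 87.9 CPM in controls and 116, 108 and 112 CPM in MNP samples. All MNP libraries exceeded all controls, and the increase was 1.24-fold (log2 0.31 ± 0.07, adjusted p = 0.01001, interval 1.11 to 1.38). The call held with library totals alone (adjusted p = 0.0468) and was lost without control 2 (0.0521). An opposite-strand gene, 1700101I11Rik, shares 25.2% of its short stretches but had 5 counts in the 3 control and 13 in the 3 MNP libraries, against 1892 to 2396 counts of Gabarapl1 in each of the 6 libraries.

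Map1lc3b, the LC3 gene used most as an autophagy marker, was at 102, 103 and 118 CPM in controls and 123, 119 and 122 CPM after MNP. The groups were apart by a small margin, set by control 3, and the difference did not pass (log2 0.17 ± 0.06, adjusted p = 0.0920), though it did without control 3 (log2 0.24, adjusted p = 0.0151) and with a block for the replicate number (log2 0.17, adjusted p = 0.0475). Map1lc3a, another LC3 gene, was near 5 CPM (4.36, 4.65 and 4.67 against 5.95, 4.51 and 5.31 CPM). Gabarap was at 205, 206 and 208 CPM in controls and 211, 221 and 206 CPM in MNP libraries, with a fold interval of 0.952 to 1.12. Gabarapl2 was at 32.5, 39.5 and 33.4 CPM against 36.8, 38.6 and 34.3 CPM, and 21.3% of its short stretches recur in other genes. All 5 estimates were above 0 under the main scaling, but 2 of the 5 were below 0 with library totals alone.

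Levels can be set beside each other only per transcript length. With merged exon lengths of the GRCm38 annotation, Gabarap was the highest of the 5 in controls at 153 ± 1.12 CPM per kb, then Gabarapl1 at 49.6 ± 5.16. Gabarapl2 (21.0 ± 2.27) and Map1lc3b (20.8 ± 1.69) lay within each other's spread, and Map1lc3a was lowest at 4.10 ± 0.155. With the median length of coding transcripts, Map1lc3b came to 65.3 CPM per kb, above Gabarapl2, while Gabarap (196) and Gabarapl1 (125) were again the highest.

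**Figure D2:**
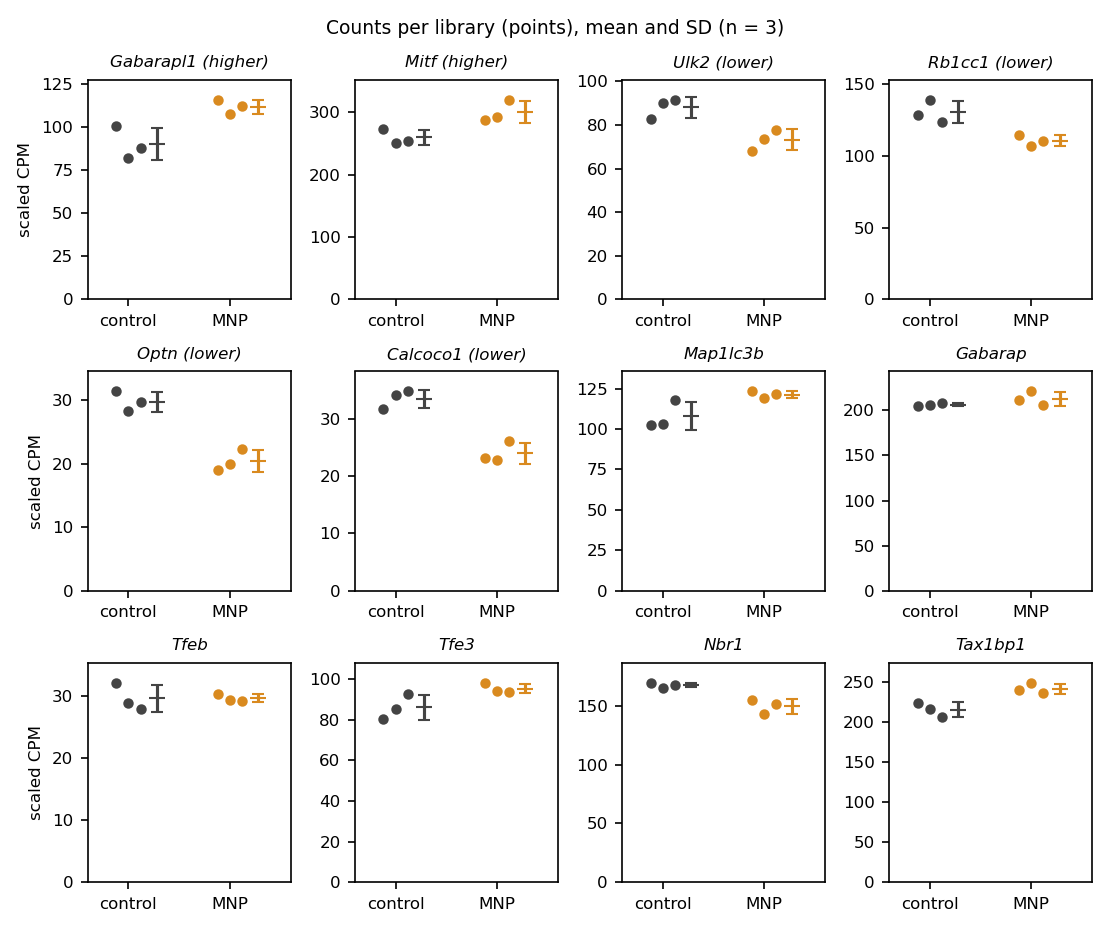
Scaled CPM in each library (points, replicates 1 to 3 from left to right) with mean and SD (n = 3) for 12 members, on axes that start at 0. The 6 called genes have groups that do not overlap, as do Map1lc3b, Tfe3, Nbr1 and Tax1bp1, which were not called. The groups of Tfeb and Gabarap overlap. Among all tested genes, 34.6% had groups that did not overlap.

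The cargo receptors held the largest changes, with 2 of the 4 called, both lower. Among all tested genes 17.5% were called and 8.35% were lower, and a share of so few receptors says little. Optn, the ubiquitin-binding receptor optineurin that acts in the clearance of mitochondria and bacteria, was at 31.3, 28.2 and 29.7 CPM in controls and 19.0, 19.9 and 22.4 CPM in MNP libraries. The lowest control lay well above the highest MNP library, and the decrease was 1.46-fold (log2 -0.54 ± 0.09, adjusted p = 0.00106). Calcoco1, a receptor for parts of the endoplasmic reticulum and Golgi, was at 31.7, 34.0 and 34.7 CPM in controls and 23.2, 22.7 and 26.1 CPM after MNP. Its groups were as clearly apart, with a decrease of 1.40-fold (log2 -0.48 ± 0.09, adjusted p = 0.00166). Optn and Calcoco1 were called under all 14 alternatives, with log2 changes from -0.63 to -0.49 and from -0.57 to -0.44.

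The other 2 receptors lay just beyond the threshold, in opposite directions. Nbr1, a receptor for ubiquitinated proteins and peroxisomes, was at 169, 165 and 168 CPM in controls and 154, 143 and 151 CPM after MNP (log2 -0.16 ± 0.05, adjusted p = 0.0534). Tax1bp1, a ubiquitin-binding receptor that also restrains NF-kB signalling, was at 225, 217 and 206 CPM in controls and 240.1, 249 and 237 CPM after MNP (log2 0.17 ± 0.06, adjusted p = 0.0587). Neither pair of groups overlapped. Nbr1 was called under 3 and Tax1bp1 under 5 of the 14 alternatives.

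Of the MiT/TFE factors, Mitf rose slightly and Tfeb was not called. Tfeb, the factor most closely tied to lysosome formation, was at 32.2, 29.0 and 27.9 CPM in controls and 30.4, 29.5 and 29.3 CPM in MNP libraries. The MNP libraries lay inside the range of the controls, and the fold interval was 0.884 to 1.13 (adjusted p = 0.987). Tfe3 was at 80.5, 85.2 and 92.6 CPM in controls and 98.1, 94.3 and 93.7 CPM after MNP, which was apart by a narrow margin but not called (log2 0.15 ± 0.06, adjusted p = 0.147).

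Mitf was at 274, 251 and 255 CPM in controls and 288, 293 and 320 CPM after MNP. All MNP libraries exceeded all controls, and the increase was 1.15-fold (log2 0.21 ± 0.06, adjusted p = 0.0324). The call was lost with library totals alone (log2 0.12, adjusted p = 0.175) and without control 2 (0.116), control 3 (0.0777), MNP sample 2 (0.0678) or MNP sample 3 (0.132). MITF also acts in osteoclasts. The osteoclast marker list summed to 30.8 to 47.4 CPM in controls and 59.2 to 62.8 CPM in MNP libraries. Most of this sum was the protease gene Ctsk, at 22.9 to 37.9 CPM in controls and 48.1 to 52.9 CPM in MNP libraries. Of the 2 tested genes of the list, Ctsk was higher (log2 0.78, adjusted p = 0.00146). The other tested marker, Acp5, did not pass, and Calcr and Oscar had at most 0.145 CPM in any library. The part of any osteoclasts in the Mitf result was not tested. Tfec, the remaining gene of the family and not a member of the list, was at 21.9, 17.0 and 19.3 CPM in controls and 18.7, 20.1 and 20.4 CPM after MNP, with overlapping groups (adjusted p = 0.913).

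Per kb of merged exons, Mitf had the highest control level of the family, 48.9 ± 2.28 CPM, followed by Tfe3 (23.8 ± 1.69), Tfec (10.9 ± 1.36) and Tfeb (7.39 ± 0.550). With the median transcript length Mitf was again first (122), but Tfeb, whose annotation holds many short transcripts, came to 53.9 CPM per kb and the order of the rest changed.

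**Figure D3:**
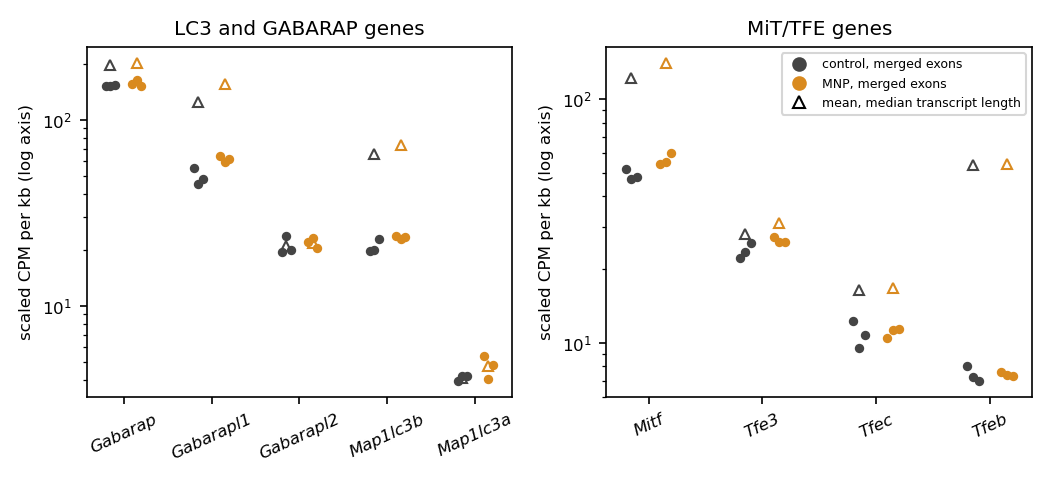
Scaled CPM per kb on a log axis for the LC3 and GABARAP genes and the MiT/TFE genes, with points for each library (merged exon length) and open triangles for group means with the median coding transcript length. Gabarap and Mitf are highest in their panels under both lengths, and the place of Map1lc3b and Tfeb depends on the length used.

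Genes around the members were described with 4 lists. Calls over all tested genes also varied with the setting. They ranged from 1471 of 13349 (without MNP sample 2) to 2245 of 13153 (without control 1) when 1 library was omitted. With library totals alone they were 2698 of 12893. Of 25 other genes of autophagosome formation and fusion, 2 rose and 3 fell, with a median log2 fold change of -0.05 beside -0.01 for all tested genes. The called share was 20%, near the 17.5% of all tested genes. Vmp1 (94.5 ± 2.97 to 119 ± 6.50 CPM, 1.26-fold) and Tmem41b (49.5 ± 1.32 to 60.1 ± 1.37 CPM, 1.22-fold), a pair of lipid scramblases of the endoplasmic reticulum that act together in autophagosome formation, were higher. Vps33a, a subunit of the tether that joins vesicles to lysosomes (131 ± 7.42 to 105.5 ± 3.64 CPM, 1.24-fold lower), the membrane-bending protein gene Sh3glb1 (1.19-fold lower) and the fusion protein gene Vamp8 (1.18-fold lower) fell. The Vamp8 call was lost under 9 of the 14 alternatives, omission of any 1 library among them. The Sh3glb1 call was lost under 5, among them omission of control 2, control 3, MNP sample 1 or MNP sample 2, and the Tmem41b call with library totals alone. With library totals alone, 1 gene of the list was higher and 8 were lower. The count of lower genes was 1 without control 2, control 3, MNP sample 1 or MNP sample 2.

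Of 16 tested genes among the other selective autophagy receptors, 3 rose and 2 fell, with a median of -0.04. The called share was 31.2%, or 5 genes, beside 17.5% of all tested genes. Sqstm1, which encodes the receptor p62 and is also a known NRF2 target, was at 320, 299 and 324 CPM in controls and 532, 506 and 566 CPM after MNP. The groups were far apart, and the increase was 1.70-fold (log2 0.77 ± 0.06, adjusted p = 1.16e-06), larger in size than that of any of the 38 members. Ccpg1, a receptor for endoplasmic reticulum, fell 1.56-fold (71.8 ± 6.14 to 46.2 ± 3.14 CPM), whereas Retreg1 and Rtn3, receptors for the same organelle, rose 1.27-fold (121 ± 15.5 to 153 ± 2.33 CPM) and 1.19-fold (142 ± 12.3 to 168 ± 7.86 CPM). Wdfy3, a large scaffold of aggregate clearance, fell 1.15-fold. The Wdfy3 call was lost under 7 of the 14 alternatives, among them omission of any 1 library other than control 1. The Rtn3 call was lost under 5, among them library totals alone and omission of control 2, MNP sample 2 or MNP sample 3. The count of lower genes was 1 without control 2, control 3, or any 1 of the 3 MNP samples, and the split was 2 higher and 3 lower with library totals alone.

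Of 38 tested genes of nutrient and energy control, 3 rose and 2 fell, with a median of -0.02. The called share was 13.2%, or 5 genes, beside 17.5% of all tested genes. Sesn1, a leucine-sensing restraint on mTORC1 and a p53 target, fell 1.43-fold from 192 ± 5.09 to 134 ± 4.70 CPM (adjusted p = 1.82e-05). Deptor, an inhibitor within mTOR complexes, fell 1.39-fold from 41.4 ± 1.76 to 29.7 ± 0.443 CPM. Rptor, the subunit that defines mTORC1 (1.19-fold), Fnip2, a partner of folliculin in the control of TFEB and TFE3 (1.18-fold), and Prkaa1, a catalytic subunit of the energy sensor AMPK (1.19-fold), rose. All 3 of these calls were lost with library totals alone. The Rptor call was also lost without control 3, MNP sample 2 or MNP sample 3, and the Prkaa1 call without control 2, MNP sample 1 or MNP sample 2. With library totals alone 0 genes of this list were higher and 6 lower, and 1 was higher without MNP sample 2.

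Of 28 lysosomal genes described as TFEB targets, 4 rose and 1 fell, with a median of 0.03. The called share, 17.9%, was near the 17.5% of all tested genes. The 4 increases were small: Clcn7, a lysosomal chloride transporter (96.5 ± 7.56 to 116 ± 7.12 CPM, 1.20-fold), Scpep1, a carboxypeptidase (1.20-fold), Atp6ap1, an accessory subunit of the proton pump (1.17-fold), and Gla, alpha-galactosidase A (1.15-fold). Ctsf, cathepsin F, fell 2.58-fold from 6.32 ± 0.819 to 2.45 ± 0.117 CPM, at a low level. The Scpep1 call was lost without any 1 library other than control 3, the Clcn7 call without control 2, control 3, MNP sample 1 or MNP sample 2, and the Gla call without control 2, MNP sample 2 or MNP sample 3. With library totals alone 0 genes were higher and 6 were lower. The count of higher genes was 1 without control 2 or MNP sample 2, and 2 without MNP sample 1 or MNP sample 3.

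**Figure D4:**
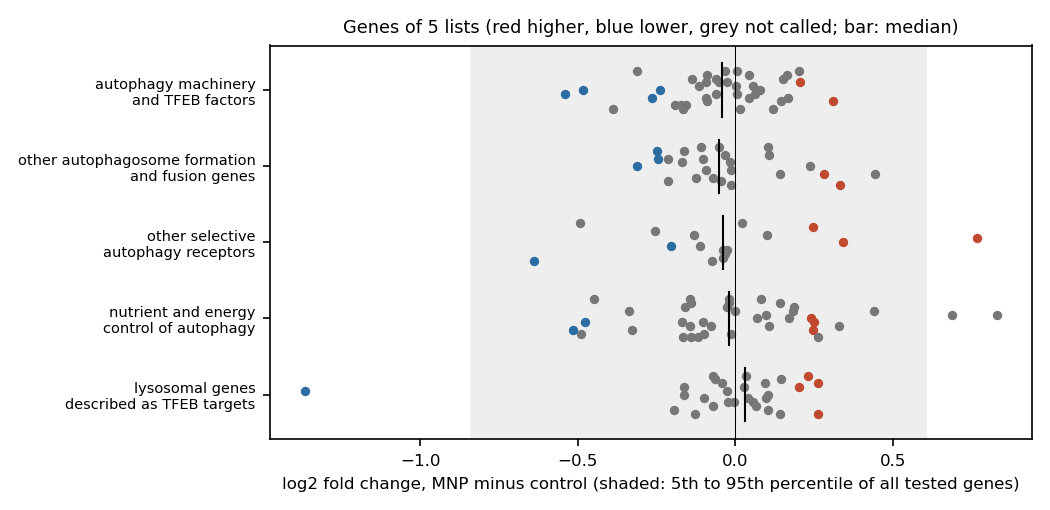
Log2 fold change, MNP minus control, of each tested gene in the members' list and in 4 lists of surrounding genes, with a bar at each median and shading from the 5th to the 95th percentile of all tested genes (-0.84 to 0.61). The medians lie between -0.05 and 0.03. The points outside the shading are Sqstm1, Ctsf, and Prkaa2 and Sesn2 of nutrient control, neither of which was called.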

How the data were processed

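Total RNA libraries (CORALL RNA-seq V2 kit, per the labels' protocols) gave deposited whole-number counts per gene symbol. The tools GATK, Salmon, STAR and fastp and the build GRCm39 are named per the submitters' processing notes, without roles. How reads were counted, with which annotation, strand setting and use of molecular identifiers, is not given in the sources used here, so counts of overlapping genes and near-identical copies cannot be separated. Intervals are for the estimated fold change and rest on the spread between samples as modelled.

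Groups and replicate numbers came from sample titles. From the counts, edgeR 4.0.16 (R 4.3.3) was run on all 12893 genes left by its default filter, with TMM factors and the quasi-likelihood F test, MNP minus control. The SE was taken as the size of the log2 fold change divided by the root of F, and intervals use the t quantile at the test's total degrees of freedom. Replicate pairs differed by 6.65 to 17.6 chi-square per degree of freedom, so none looked like 1 library deposited again. The steps were tested on simulated data with changes of at least 1.5-fold, larger than the estimate of any member, so recovery of smaller changes was not tested. Alternatives were RLE factors, library totals, no filter, a stricter filter (at least 1 CPM in 3 libraries and a mean of 5 CPM), DESeq2 1.42.0, limma-voom 3.58.1, a replicate block, a threshold of 0.01 and omission of each library. Median transcript length was added after seeing the data.

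The members and lists were chosen with earlier results of these data known. By rule, every called member, the LC3, GABARAP and MiT/TFE genes, up to 4 called genes per direction of each other list, Sqstm1 and Tfec are named with values. Becn1, Atg4c, Nbr1, Tax1bp1, Wipi1 and Atg10 were given in full after their values were seen. Lengths and shared stretches came from GENCODE M21 (GRCm38), matched by symbol for 38 members, and GRCm38.p6 promoter coordinates apply only to the printed sequences.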

Additional observations from a re-analysis of the deposited data

How the results depend on the processing

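Scaling and replication limited these results. With library totals alone, calls among the members were 1 higher and 8 lower with a median log2 fold change of -0.13 (all tested genes -0.10, with 2698 called), formation and fusion genes 1 and 8, nutrient control 0 and 6, and TFEB targets 0 and 6. With no filter, the members' median was -0.0082 (all 28815 genes -0.16, with 2606 called), 1 other receptor was lower and 5 nutrient control genes were higher. At an adjusted p under 0.01, edgeR called 0 members higher (2 at 0.05) and 2 lower, 1 formation and fusion gene lower, 1 other receptor lower, 1 nutrient control gene higher and 1 TFEB target higher. At that threshold it called 1272 of all 12893 tested genes, against 2250 at 0.05. DESeq2 and limma-voom each called 2 TFEB targets lower, and over all genes they called 2075 and 2240. The cause of these shifts was not tested.

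With each library left out in turn, members ranged from 0 to 3 higher and 2 to 4 lower (0 and 2 without control 2, 1 and 2 without MNP sample 2, 1 and 3 without MNP sample 3), and their median from -0.0602 (without MNP sample 1) to -0.0207 (without MNP sample 2). Lower formation and fusion genes ranged from 1 to 2, lower other receptors from 1 to 3, higher nutrient control genes from 1 to 4 and higher TFEB targets from 1 to 3. Over all tested genes, calls ranged from 1471 of 13349 (without MNP sample 2) to 2245 of 13153 (without control 1). The main fit called 2250 of 12893.

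The replicate block called 4 members higher and 5 lower, 6 nutrient control genes higher and 2 TFEB targets lower. Over all 12893 tested genes it called 2686, against 2250 without the block. Samples with the same number correlated at 0.087, 0.028 and -0.022 in their deviations from the group means. Not every sample correlated best with its own number. With so few libraries per group, these correlations cannot show whether the cultures were paired, and the labels do not say. No named gene reversed a called direction.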
